A study of Mus musculus with 6 samples.

Results

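Solute carriers are the membrane proteins that move amino acids, sugars, ions, metals, nucleotides and vitamins across the plasma membrane and the membranes of organelles, and their genes carry symbols that begin with Slc. The members described here are the 191 protein-coding Slc genes, of 374 in the deposited table, whose TPM reached 1 in 3 or more of the 6 libraries. TPM is a transcript abundance that corrects for gene length and scales each library to a fixed total. The levels themselves therefore chose the members, and that they are expressed is no finding. The group contrast was not part of the choice, except for the few genes that passed through 1 group alone.

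The RNA came from mouse GMLPs, a bone marrow progenitor population, which were sorted and cultured for 3 days with doxycycline (DOX). The L28BME group had 3 libraries from mice with the genotype LIN28B*MLL-ENL. The ME group had 3 libraries from mice with MLL-ENL alone, so both groups carried the fusion and both were cultured with DOX. LIN28B, an RNA-binding protein that is active in fetal blood formation, keeps let-7 microRNA precursors from being processed, and MLL-ENL is a leukaemia fusion protein. The comparison asks how LIN28B alters cells that carry the fusion. The labels do not give the strain and age of the mice, the promoters of the transgenes or whether replicates came from separate animals. The p-values measure the spread between these libraries, which may be technical.

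Lin28b itself was at 11.2, 11.7 and 11.9 TPM in the L28BME libraries and listed at 0 in all 3 ME libraries. Of the genes that define GMLPs, Kit and Cd48 were present in every library, at 73.2 to 88.4 and 226 to 231 TPM in L28BME against 76.5 to 106 and 291 to 302 TPM in ME. Ly6a, which encodes Sca-1, was low, at 1.38 to 3.18 TPM in L28BME and 9.64 to 11.8 TPM in ME. Ly6a and Cd48 were called lower in L28BME (log2 fold changes -1.96 and -0.38), also in all 6 fits without 1 library, and Kit was not called. Slamf1, also listed as a sort marker, was too low to be tested, at 0.526 to 0.706 TPM in L28BME and 0 to 0.209 TPM in ME. Markers of other blood cells differed between the groups, in both directions. The summed level of 7 neutrophil markers was 535 to 556 TPM in L28BME and 213 to 221 TPM in ME, and that of 7 megakaryocyte markers was 139 to 158 TPM in L28BME and 83.1 to 86.98 TPM in ME. In each of the 2 lists 5 genes were called higher and 0 lower, or 71.4% called beside 14.9% of all genes tested. Without 1 library 4 or 5 neutrophil and 4 megakaryocyte genes were higher. Of 4 tested macrophage and dendritic cell markers, Cd68 and Itgax were lower and Csf1r higher (log2 fold changes -0.40, -0.61 and 0.26), and of these only Cd68 held in all 6 fits without 1 library. All 9 listed markers of this kind summed to 86.9 to 91.95 TPM in L28BME and 102.3 to 102.9 TPM in ME, and C1qa and Cd209a were listed at 0. Of 3 tested B cell markers Cd79b alone was called, higher by 1.03. Of 6 listed markers of stroma and endothelium only Pecam1 was high enough to be tested, and it was lower by 0.52. The others, Col1a1, Col1a2, Cdh5, Lepr and Cxcl12, were under 1 TPM in every library, so Pecam1 alone does not show endothelial cells. The share called was 75.0% of the tested macrophage and dendritic cell markers and 33.3% of the tested B cell markers. All 6 listed B cell markers summed to 58.8 to 61.97 TPM in L28BME and 30.6 to 32.2 TPM in ME. None of 4 tested erythroid markers was called. All 10 listed erythroid markers summed to 21.2 to 34.3 TPM in L28BME and 11.2 to 20.02 TPM in ME. The 6 T and NK cell markers summed to at most 0.972 TPM in L28BME and 0.323 TPM in ME, with Cd3e, Cd8a and Ncr1 listed at 0 in all libraries. The part of these markers in the results was not tested. Sequencing depth is unknown, because TPM keep no record of it, and no counting interval can be given. In bulk RNA, fewer cells of a type and less RNA per cell cannot be told apart, which applies to every level below.

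Solute carrier RNA took 0.946 to 0.951% of all TPM in the L28BME libraries and 0.923 to 0.932% in the ME libraries. The member means over the 6 libraries ran from 1.03 to 1458 TPM, with a median of 20.1 TPM, and 39 members averaged under 5 TPM. Of the 191 members, 183 reached 1 TPM in every library. Another 6 did so in 4 or 5 libraries, 1 only in the L28BME libraries and 1 only in the ME libraries. Nearest inside the threshold were Slc6a8, Slc37a2 and Slc24a5, whose values at the third rank, which decide membership, were 1.10, 1.13 and 1.16 TPM. Nearest outside it were Slc44a4, Slc14a1 and Slc39a2, at 0.958, 0.866 and 0.784 TPM. Among the 183 Slc genes left out, 109 were listed at 0 in all 6 libraries. These included Slc30a1, a zinc exporter, while Slc4a1 of red cells and Slc11a1 and Slc15a3 of phagocytes stayed under 1 TPM.

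In L28BME cells 31 members were higher and 15 were lower than in ME cells, and 145 did not pass the test. Calls rest on limma with an intensity trend on log2(TPM + 1), two-sided, at a Benjamini-Hochberg adjusted p under 0.05 over all 13348 genes tested. Thus 24.1% of members were called, against a background of 14.9% of all genes tested. The share called higher was 16.2%, against 8.28% of all genes, and the share called lower was 7.85%, against 6.60%. Of protein-coding genes alone 16.8% were called, 9.55% higher and 7.27% lower. The median log2 fold change of the members was 0.02, beside 0.003 over all genes tested. Most called changes were small. Of the 46 called members, 18 moved by at least 0.5 on the log2 scale, and 5 by at least 1. Calls of at least 0.5 were 5.44% of all genes and 5.88% of protein-coding ones. No overlap between the 2 groups was seen for 55 members that were higher and 35 that were lower in L28BME, which is 47.1% of members against 36.7% of all genes tested and 39.9% of protein-coding ones. Without 1 library the counts were 23 to 27 higher and 8 to 12 lower, and the lowest count of lower members came without ME library 3. Of the 46 calls, 31 held in all 6 of these fits.

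Carriers of amino acids and peptides had the largest number of called genes of any substrate class, though not the largest share. Among the 29 carriers of amino acids and peptides 13 were higher and 3 lower, or 55.2% called, beside 14.9% of all genes tested. The other 162 members had 18 higher and 12 lower, or 18.5% called. In the small class of monocarboxylates, with 7 members, 57.1% were called. The median log2 fold change was 0.21 for the amino acid class and lay between -0.04 and 0.12 for the other 9 classes. Of those 9, the mitochondrial carriers had 2 of 38 higher and 3 lower, and the carriers of inorganic ions had 5 of 26 higher and 0 lower.

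**Figure D1:**
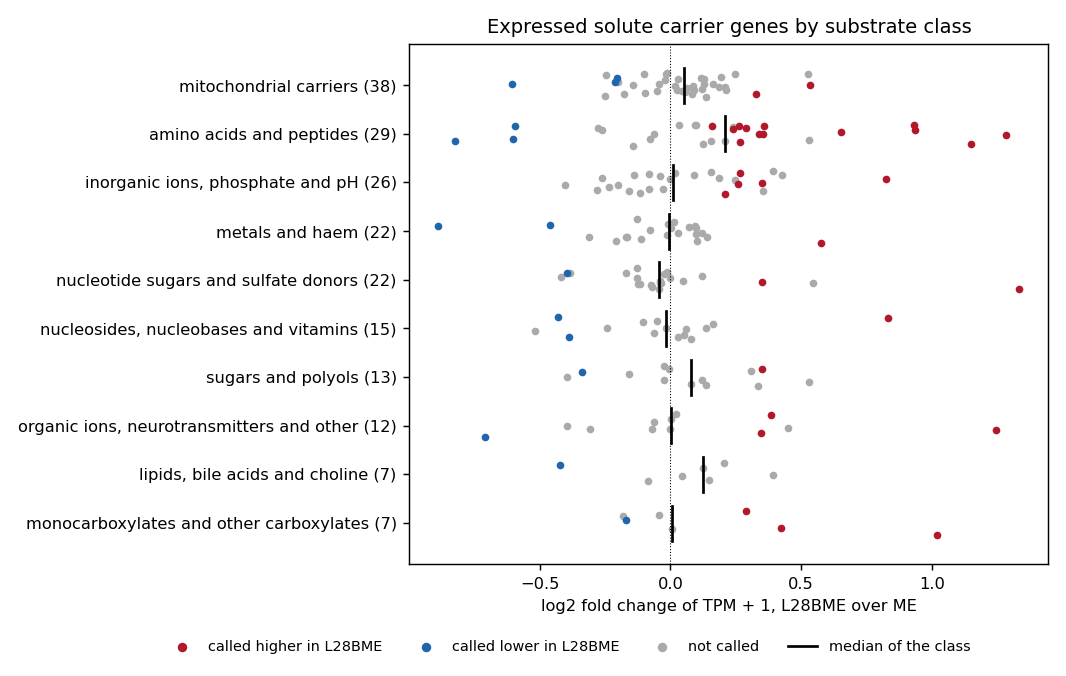
The log2 fold change (L28BME over ME, of TPM + 1) of each of the 191 members is a point, grouped by substrate class with the number of members in brackets, and the black bar is the class median. Called genes are coloured, and the amino acid class, with a median of 0.21 and 13 members called higher, sits to the right of the others.

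Animal cells take up most of their amino acids through solute carriers that work in series. Sodium-coupled carriers such as ASCT and SNAT proteins concentrate small neutral amino acids, exchangers then trade these for large neutral amino acids, and cationic carriers bring in arginine and lysine. Several of their genes are known targets of ATF4, a transcription factor whose translation rises when amino acids are short.

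The cationic amino acid carrier gene Slc7a3 (ENSMUSG00000031297, chrX:101079210-101086020 of GRCm38, minus strand) had 8.36, 8.61 and 7.38 TPM in L28BME libraries against 2.76, 2.89 and 2.59 TPM in ME libraries. All 3 L28BME libraries were more than 2 times as high as any ME library, a 2.96-fold difference of means (log2 fold change 1.28, SE 0.091, adjusted p = 0.000836). Slc7a1, its more abundant relative, rose to 123 ± 3.09 TPM in L28BME, against 95.7 ± 2.33 TPM in ME (mean ± SD over the 3 libraries of a group, here and throughout; log2 fold change 0.35, adjusted p = 0.00271). The other 2 cationic carriers, Slc7a6 and Slc7a7, did not pass, with log2 fold changes of 0.10 and 0.09.

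The 4 carriers grouped here as carriers of small neutral amino acids were all called higher, beside 8.28% of all genes tested. These groups within the class were set by hand, and Slc36a2, a member of the class that was called lower, is in none of them. Slc1a4 (ENSMUSG00000020142, chr11:20302180-20332713, minus strand), which exchanges alanine, serine and cysteine, had 34.7, 34.7 and 34.1 TPM in L28BME libraries and 13.7, 15.5 and 15.9 TPM in ME libraries. The L28BME libraries lay close together and far above all 3 ME libraries (log2 fold change 1.15, SE 0.065, adjusted p = 0.000456). The glutamine carrier Slc1a5 was at 313 ± 1.39 TPM in L28BME and 261 ± 4.48 TPM in ME (log2 fold change 0.26, adjusted p = 0.00237). Slc38a2, a sodium-coupled carrier of glutamine and alanine, was at 214 ± 3.08 TPM in L28BME and 175 ± 6.92 TPM in ME (log2 fold change 0.29, adjusted p = 0.00561). Slc38a1 showed the smallest change of the 4, at 168 ± 2.10 TPM in L28BME and 151 ± 3.15 TPM in ME (log2 fold change 0.16, adjusted p = 0.022). Its call was lost without any L28BME library and without ME library 2 or 3, with adjusted p between 0.0405 and 0.0755 over the 6 fits.

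A further hand-set group, of 4 carriers of glycine, cystine, taurine or aromatic amino acids, had 4 of 4 higher. The share over all genes tested was 8.28%. The group does not hold every member that may carry these substrates. Slc6a9, the glycine transporter that erythroid cells use for haem synthesis, had 26.4, 24.1 and 25.4 TPM in L28BME libraries and 12.6, 11.8 and 13.8 TPM in ME libraries. The groups were separated by a wide gap (log2 fold change 0.94, SE 0.075, adjusted p = 0.00114). Slc7a11, the cystine importer that feeds glutathione synthesis, was at 10.7 ± 0.144 TPM in L28BME and 6.45 ± 0.194 TPM in ME (log2 fold change 0.65, adjusted p = 0.00231). Slc16a10, which carries aromatic amino acids, and Slc6a6, the taurine transporter, had smaller differences of 0.34 and 0.26 on the log2 scale (adjusted p = 0.0074 and 0.00404).

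Of the heavy chain Slc3a2 and 4 large neutral amino acid carriers, 2 were higher and 1 was lower. Slc3a2 encodes the partner without which Slc7a5 and Slc7a11 do not reach the cell surface. It was at 346, 345 and 371 TPM in L28BME libraries and 301, 297 and 300.1 TPM in ME libraries (log2 fold change 0.24, adjusted p = 0.00902). Its partner Slc7a5, the leucine carrier LAT1, was at 319, 311 and 318 TPM in L28BME libraries and 242, 246 and 252 TPM in ME libraries (log2 fold change 0.36, adjusted p = 0.00114). In both genes every L28BME library was above every ME library. Slc7a8, the related carrier LAT2, went the other way, at 28.2, 27.9 and 30.9 TPM in L28BME and 45.4, 42.9 and 45.4 TPM in ME (log2 fold change -0.60, SE 0.057, adjusted p = 0.00205).

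The peptide carrier Slc15a2 had 20.6, 19.8 and 18.9 TPM in L28BME libraries and 10.6, 10.4 and 8.79 TPM in ME libraries. The groups were far apart relative to their spread (log2 fold change 0.93, SE 0.086, adjusted p = 0.00187). The carriers Slc36a2 and Slc36a4 were lower, at 1.72 ± 0.247 and 3.20 ± 0.0802 TPM in L28BME against 3.82 ± 0.572 and 5.39 ± 1.05 TPM in ME (log2 fold changes -0.82 and -0.59, adjusted p = 0.011 and 0.0396). The call of Slc36a4 was lost without any L28BME library and without ME library 2 or 3, with adjusted p between 0.0153 and 0.119 over the 6 fits. Of the 5 lysosomal carriers of amino acids and peptides, 0 were higher and Slc36a4 was the 1 lower.

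**Figure D2:**
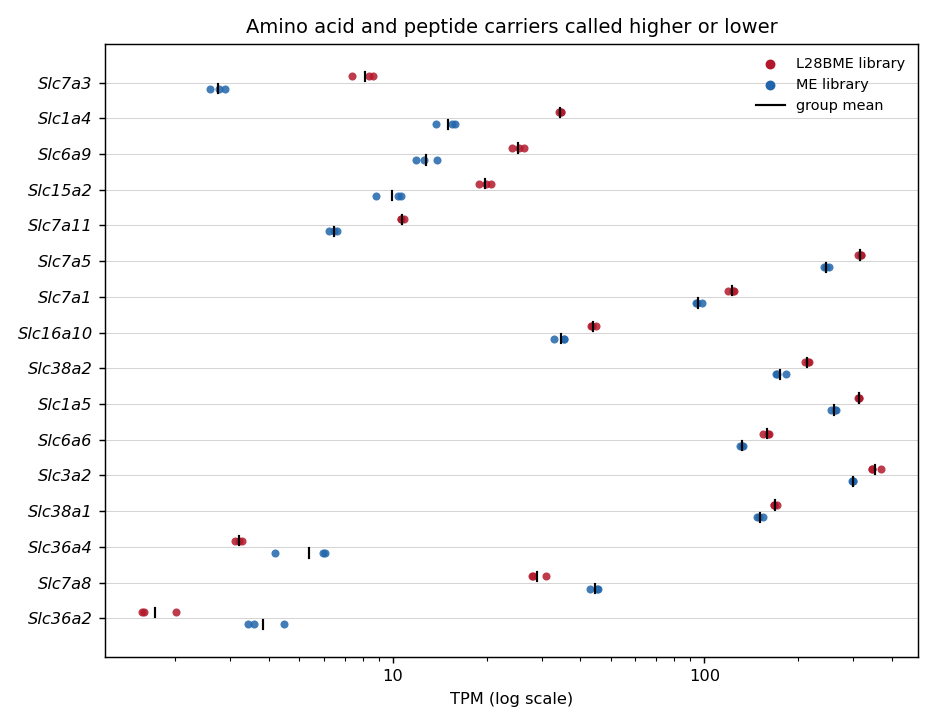
TPM (log scale) of the 16 called amino acid and peptide carriers in each library, with L28BME libraries above ME libraries for each gene and a black bar at each group mean. The 13 genes from Slc7a3 to Slc38a1 have all 3 L28BME libraries to the right of the ME libraries, and Slc36a4, Slc7a8 and Slc36a2 have them to the left.

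The class summed to 2249.8, 2257 and 2237 TPM in the L28BME libraries and to 1899, 1951 and 1896 TPM in the ME libraries. Every L28BME library was above every ME library, and the ratio of means was 1.17. An exact two-sided permutation test gave p = 0.1, the smallest that 3 against 3 libraries allows, and 0.167 adjusted over 10 classes.

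A list of 10 carriers linked to ATF4 in the literature was read beside these. All 10 were called, 9 of them higher, and the same split of 9 and 1 stood in each fit without 1 library. The exception, Slc33a1, carries acetyl-CoA into the endoplasmic reticulum rather than amino acids. It was at 26.98 ± 0.753 TPM in L28BME and 35.7 ± 2.48 TPM in ME (log2 fold change -0.39, adjusted p = 0.0129). Because the list was written with earlier results of these data known, its count is no independent evidence. Atf4 RNA itself did not pass the test. It stood at 319, 692 and 308 TPM in the L28BME libraries and at 621, 636 and 641 TPM in the ME libraries (log2 fold change -0.63, SE 0.31, adjusted p = 0.236). L28BME libraries 1 and 3 were far below the rest, and L28BME library 2 was above all ME libraries. The level of Atf4 protein was not measured.

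Genes of amino acid synthesis were read in the same fit. Of 17 tested genes of serine, glycine and one-carbon synthesis, 5 were higher and 0 lower, or 29.4% called beside the background of 14.9%. Mthfd2, a mitochondrial folate enzyme, was at 251 ± 3.67 TPM in L28BME and 178 ± 4.04 TPM in ME (log2 fold change 0.49), and Aldh1l2 was at 12.01 ± 0.705 TPM in L28BME and 5.95 ± 0.248 TPM in ME (log2 fold change 0.90). Psat1, Shmt2 and Mthfd1l were the other called genes, at log2 fold changes of 0.27, 0.36 and 0.15. The call of Mthfd1l was lost without any 1 library, and the list then had 4 to 6 genes higher. Of 15 genes of glutamine, aspartate and proline metabolism 6 were higher and 1 was lower, or 46.7% called. Asns, which makes asparagine, was at 249, 238 and 248 TPM in L28BME libraries and 139, 144 and 142 TPM in ME libraries (log2 fold change 0.79, SE 0.032). The proline synthesis enzymes Pycr1 and Aldh18a1 were also higher, by 0.81 and 0.43, and Ass1, which makes argininosuccinate, was lower (-0.34). Without 1 library 4 to 6 genes of this list were higher and 1 was lower. Among 27 genes of the amino acid response and of amino acid sensing 4 were higher and 1 was lower, or 18.5% called beside the background of 14.9%. The 4 were the stress genes Chac1 (log2 fold change 1.19), Trib3 (0.90), Sesn2 (0.46) and Atf5 (0.26), and the 1 was Lamtor4 (-0.27), a subunit of the lysosomal complex that recruits mTORC1. Without 1 library 3 to 5 genes of this list were higher and 1 or 2 lower, and the Atf5 call was lost in 5 of the 6 fits.

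**Figure D3:**
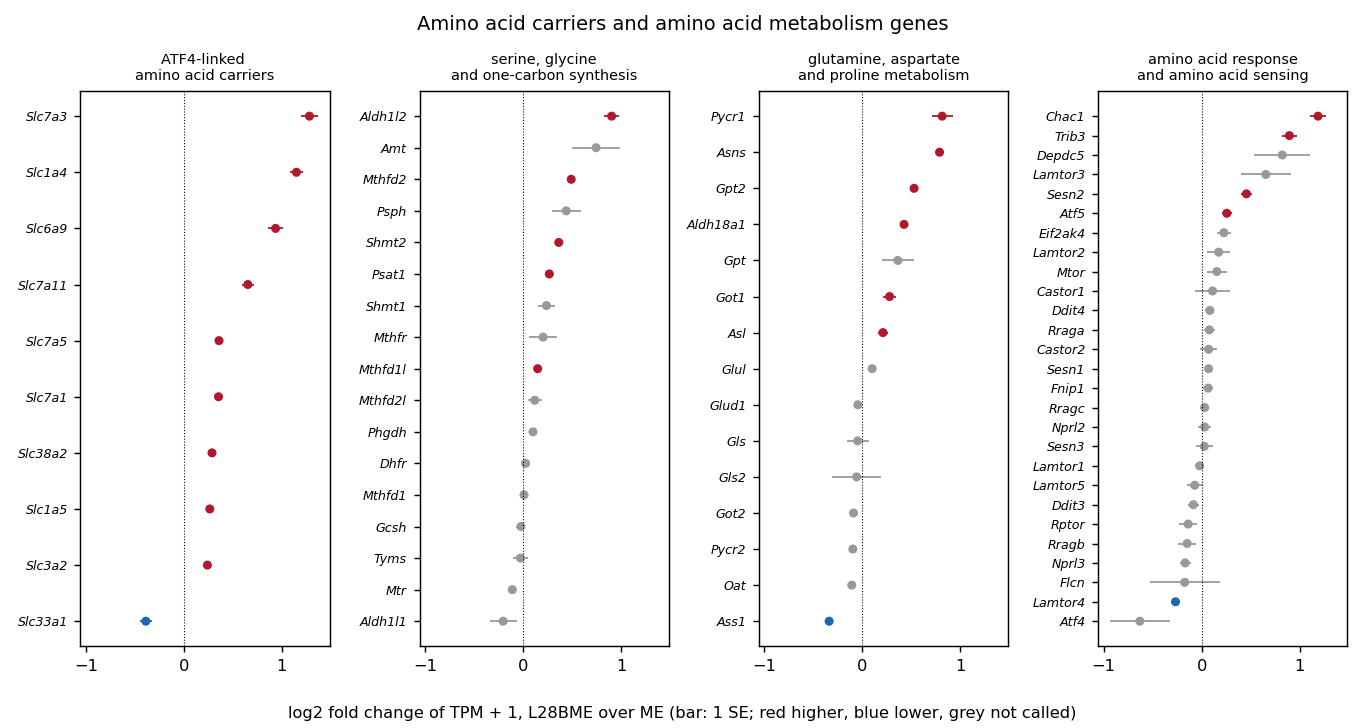
Each point is the log2 fold change (L28BME over ME, of TPM + 1) of a tested gene, with a bar of 1 SE on each side, in 4 lists. In the first panel 9 of 10 carriers are called higher, whereas Atf4, at the foot of the last panel, has a log2 fold change of -0.63 with an SE of 0.31 and is not called.

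Promoters were searched for the letters TGATGNAA on both strands, the core of the element that ATF4 binds together with C/EBP factors. The window ran from 250 bases before to 50 after the RefSeq gene start (GRCm38.p6). It held the letters in 4.51% of 27025 genes with a promoter sequence, in 2.76% of 8813 tested protein-coding genes and in 6 of the 146 members with a sequence, or 4.11%. Among the 21 amino acid and peptide carriers with a sequence 3 held it, namely 2 of the 8 called higher and 1 of the 13 others. The called pair, Slc7a11 and Slc1a4, is printed here with 30 bases around the match on the gene's strand and the match in capitals; in Slc7a11 the letters occur on both strands, 66 and 47 bases before the start. A letter match is no evidence of binding.
Slc7a11, chr3:50443652-50443681, minus strand: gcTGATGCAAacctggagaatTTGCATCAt
Slc1a4, chr11:20332699-20332728, minus strand: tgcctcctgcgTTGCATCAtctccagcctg
The match for Slc1a4, read on the opposite strand, begins 4 bases before the start and runs across it. The third carrier with the letters, Slc7a7, was not called.

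Outside the amino acid class, the member with the smallest p-value was Slc35d3 (ENSMUSG00000050473, chr10:19847916-19851459, minus strand). It encodes a protein of the nucleotide sugar transporter family that mouse platelets need for dense granules. It had 28.8, 28.7 and 30.2 TPM in L28BME libraries and 11.4, 11.02 and 10.6 TPM in ME libraries. Every L28BME library was over 2 times any ME library (log2 fold change 1.33, SE 0.056, adjusted p = 0.00016). Beside it stand the megakaryocyte markers given above, of which Pf4 was at 52.4 ± 6.08 TPM in L28BME and 19.3 ± 1.53 TPM in ME. The other called members of the class were Slc35f5, higher by 0.35 on the log2 scale, and Slc35b1, the ATP carrier of the endoplasmic reticulum, at 95.6 ± 2.58 TPM in L28BME and 126 ± 5.02 TPM in ME (log2 fold change -0.40, adjusted p = 0.00302). The Slc35f5 call was lost without L28BME library 1 or 2 and without any ME library (adjusted p 0.0236 to 0.0844 over the 6 fits). The remaining 19 of 22 were not called, among them Slc35c2, the most abundant of the class, at 115 ± 3.68 TPM in L28BME and 126 ± 19.7 TPM in ME. The share called in the class was 13.6%, close to the 14.9% of all genes tested. The class sum was 796 ± 6.94 TPM in L28BME and 839 ± 21.2 TPM in ME (exact permutation p = 0.1).

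Mitochondrial carriers hold 37.1% of all member RNA, and 13.2% of them were called, close to the 14.9% of all genes tested. The largest share is that of Slc25a5, which encodes the ADP/ATP exchanger ANT2 and was the most abundant of all members. It had 1341, 1355 and 1368 TPM in L28BME libraries and 1542, 1565 and 1579 TPM in ME libraries. All L28BME libraries were below all ME libraries, by 0.21 on the log2 scale (SE 0.022, adjusted p = 0.00317). Its isoform gene Slc25a4 was at 139 ± 0.515 TPM in L28BME and 137 ± 2.39 TPM in ME, and the phosphate carrier Slc25a3 at 562 ± 38.4 TPM in L28BME and 569 ± 4.12 TPM in ME, and neither was called. Slc25a29, a carrier of basic amino acids, was also lower, with 2.74, 2.63 and 2.27 TPM in L28BME libraries and 4.34, 4.08 and 4.78 TPM in ME libraries (log2 fold change -0.61, adjusted p = 0.0139, and 0.0534 without ME library 3). The groups did not overlap. The third lower gene was Slc25a51, the mitochondrial NAD carrier, at 65.8 ± 1.44 TPM in L28BME and 76.3 ± 2.29 TPM in ME (log2 fold change -0.21, adjusted p = 0.0197). Its adjusted p ran from 0.0479 to 0.0637 with 1 library left out, and it stayed called only without L28BME library 2.

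Higher mitochondrial carriers were Slc25a23 and Slc25a13. Slc25a23, a calcium-dependent exchanger of ATP-magnesium for phosphate, had 38.3, 40.9 and 40.5 TPM in L28BME libraries and 28.7, 27.1 and 26.05 TPM in ME libraries (log2 fold change 0.53, SE 0.055, adjusted p = 0.00278). Slc25a13, the aspartate/glutamate carrier citrin, had 55.7, 58.8 and 56.9 TPM in L28BME libraries and 44.4, 44.6 and 47.2 TPM in ME libraries (log2 fold change 0.33, SE 0.044, adjusted p = 0.00661). Neither gene's groups overlapped. The iron importer Slc25a37 and the glycine carrier Slc25a38, which serve haem synthesis, had log2 fold changes of 0.14 and 0.07 and were not called (adjusted p = 0.0764 and 0.386). The class summed to 3399, 3407 and 3388 TPM in L28BME libraries and 3580.5, 3506 and 3566 TPM in ME libraries. All L28BME sums were lower (exact permutation p = 0.1, adjusted 0.167), while the median log2 fold change of the class was 0.05, so the sum and the median differ in sign. Mitochondrially encoded RNA, which is no part of the class, took 4.49 to 4.85% of TPM in L28BME and 4.12 to 4.35% in ME.

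In the class of metals and haem 13.6% of 22 members were called, close to the 14.9% of all genes tested. The called genes handle iron, haem and copper. Slc48a1, which returns haem from lysosomes to the cytosol, had 131, 133 and 129 TPM in L28BME libraries and 178, 182 and 181 TPM in ME libraries. All L28BME libraries lay well under all ME libraries (log2 fold change -0.46, SE 0.029, adjusted p = 0.000577). Slc40a1, the iron exporter ferroportin, was at 0.850, 0.810 and 0.677 TPM in L28BME libraries and 2.38, 2.33 and 2.15 TPM in ME libraries (log2 fold change -0.89, SE 0.105, adjusted p = 0.00408). It reached 1 TPM in the ME libraries only, and so entered through the group in which it was higher. Slc31a2, a copper carrier of endosomes, had 9.08, 9.48 and 9.21 TPM in L28BME libraries and 6.23, 5.85 and 5.58 TPM in ME libraries (log2 fold change 0.58, SE 0.072, adjusted p = 0.0049). The other 19 of 22 were not called, and these included the iron importers Slc11a2, at 28.1 ± 2.26 TPM in L28BME and 28.01 ± 1.43 TPM in ME, and Slc39a14, at 22.9 ± 1.76 TPM in L28BME and 22.7 ± 1.30 TPM in ME. The metallothionein genes Mt1 and Mt2, whose proteins bind zinc and copper, were both lower. Mt1 was at 92.6 ± 16.8 TPM in L28BME and 160.1 ± 4.72 TPM in ME (log2 fold change -0.80, adjusted p = 0.00974), and Mt2 at 4.96 ± 0.915 TPM in L28BME and 16.9 ± 2.67 TPM in ME (log2 fold change -1.59).

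Carriers of inorganic ions, phosphate and protons had 5 genes higher and 0 lower, or 19.2% called, beside 14.9% of all genes tested. Slc9a9, a sodium/proton exchanger of endosomes, had 13.5, 11.9 and 11.3 TPM in L28BME libraries and 6.49, 6.79 and 6.15 TPM in ME libraries (log2 fold change 0.82, SE 0.089, adjusted p = 0.00311). All L28BME libraries exceeded all ME libraries. The phosphate carrier Slc20a1 had 112, 128 and 111 TPM in L28BME libraries and 99.6, 92.8 and 98.1 TPM in ME libraries (log2 fold change 0.27, adjusted p = 0.0411). Slc9a3r1 had 130.05, 128 and 139 TPM in L28BME libraries and 109, 112 and 111 TPM in ME libraries (log2 fold change 0.26, adjusted p = 0.0108). It encodes the scaffold NHERF1, and like Slc9a3r2, Slc4a1ap and Slc7a6os among the members it is no carrier. The bicarbonate carrier Slc4a7 differed by 0.21 on the log2 scale (adjusted p = 0.0428). Not all of these calls were stable, and without 1 library the class had 2 or 3 higher. Those of Slc20a1 and Slc4a7 were lost in all 6 such fits (adjusted p from 0.0597 to 0.121 and from 0.0771 to 0.122).

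The monocarboxylate family, which moves lactate, pyruvate and related acids, had 3 of 7 members higher and 1 lower. Slc16a12, a creatine carrier, had 3.55, 2.96 and 2.90 TPM in L28BME libraries and 1.04, 1.06 and 0.9997 TPM in ME libraries. Each L28BME library was more than 2 times as high as any ME library (log2 fold change 1.02, SE 0.107, adjusted p = 0.00293). Slc16a3, the lactate exporter MCT4, had 34.7, 39.1 and 37.02 TPM in L28BME libraries and 28.2, 30.4 and 23.6 TPM in ME libraries (log2 fold change 0.42, adjusted p = 0.0424). Slc16a1, the lactate carrier MCT1, was slightly lower, with 112, 111 and 106 TPM in L28BME libraries and 122, 125 and 125 TPM in ME libraries (log2 fold change -0.17, adjusted p = 0.0268). Slc16a6 had 72.9, 73.5 and 71.9 TPM in L28BME libraries and 65.2, 55.1 and 58.5 TPM in ME libraries (log2 fold change 0.29, adjusted p = 0.0352). The last 3 were unstable. The Slc16a1 call was lost without any 1 library (0.058 to 0.086), that of Slc16a3 in every such fit except the one without ME library 2 (0.0464 to 0.118), and that of Slc16a6 in every one except that without ME library 1 (0.0166 to 0.103). Exons of Slc16a6 share 1052 bases with Amz2 on the opposite strand, which averaged 36.9 TPM, and the labels do not say whether strand was used in the quantification. The chaperones Bsg and Emb, which bring these carriers to the surface, were not called, at 490.2 ± 11.97 and 756 ± 6.88 TPM in L28BME against 494 ± 11.9 and 746 ± 10.1 TPM in ME.

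Sugar carriers had 1 of 13 genes higher and 1 lower, or 15.4% called, close to the 14.9% of all genes tested. Slc2a1, the glucose transporter GLUT1, had 43.9, 47.3 and 49.6 TPM in L28BME libraries and 38.8, 36.6 and 34.4 TPM in ME libraries (log2 fold change 0.35, SE 0.067, adjusted p = 0.0214). Its groups did not overlap, but the call was lost without L28BME library 2 or 3 and without ME library 2 or 3 (0.0327 to 0.069 over the 6 fits). Slc2a3, the glucose transporter GLUT3, was at 47.5 ± 8.45 TPM in L28BME and 32.5 ± 4.22 TPM in ME and missed the threshold (log2 fold change 0.53, adjusted p = 0.0695). Slc2a6, a lysosomal member of the family, had 16.4, 15.8 and 17.8 TPM in L28BME libraries and 23.3, 20.01 and 20.8 TPM in ME libraries (log2 fold change -0.34, adjusted p = 0.0396), and lost its call without any 1 library (0.0594 to 0.111). The class sum was 260 ± 7.99 TPM in L28BME and 236 ± 1.75 TPM in ME (exact permutation p = 0.1). Of 21 tested glycolysis entries, with Aldoa under 2 gene IDs, 4 were higher and 2 lower, or 28.6% called beside the background of 14.9%. Ldha was among the higher (log2 fold change 0.18), and the lower were the hexokinases Hk3 (-0.72) and Hk1 (-0.15). The calls of Ldha and Hk1 were lost without any 1 library, and 0 or 1 glycolysis gene was then higher.

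Among carriers of organic ions, neurotransmitters and other solutes 3 of 12 were higher and 1 lower. The share called was 33.3%, beside 14.9% of all genes tested. The neighbouring genes Slc6a12 (chr6:121343076-121365775) and Slc6a13 (chr6:121300227-121337733), both on the plus strand, encode carriers of betaine or GABA and were both higher. Slc6a12 had 4.12, 2.67 and 3.65 TPM in L28BME libraries and 0.870, 0.962 and 0.794 TPM in ME libraries. It reached 1 TPM in the L28BME libraries only, and so entered through the group in which it was higher (log2 fold change 1.24, SE 0.150, adjusted p = 0.00428). Slc6a13 had 14.4, 13.98 and 14.7 TPM in L28BME libraries and 10.9, 11.1 and 10.3 TPM in ME libraries (log2 fold change 0.38, SE 0.060, adjusted p = 0.0106). Slc22a3, a carrier of organic cations and monoamines, had 50.1, 51.2 and 49.6 TPM in L28BME libraries and 37.98, 39.96 and 39.98 TPM in ME libraries, with no overlap (log2 fold change 0.35, adjusted p = 0.00414). Slc22a23 was lower, with 3.93, 2.61 and 3.87 TPM in L28BME libraries and 6.47, 6.43 and 5.83 TPM in ME libraries (log2 fold change -0.71, adjusted p = 0.025), and lost its call without any 1 ME library (0.028 to 0.0817 over the 6 fits). Slc18a2, which loads monoamines into granules of mast cells and platelets, was not called, at 32.7 ± 0.926 TPM in L28BME and 34.4 ± 1.07 TPM in ME. Of 6 mast cell and basophil markers 2 were lower and 0 higher, Cpa3 and Mcpt8, by 0.20 and 0.94 on the log2 scale. That is 33.3% called, beside 14.9% of all genes tested. The Cpa3 call was lost in 2 of the 6 fits without 1 library. The other 4 were not called, and their log2 fold changes were -0.64 for Fcer1a, -0.02 for Ms4a2, 0.11 for Hdc and 0.27 for Gata2. The 6 summed to 494 to 508 TPM in L28BME and 554 to 592 TPM in ME.

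Of 15 carriers of nucleosides, nucleobases and vitamins 1 was higher and 2 were lower, one of them Slc33a1. Slc52a3, a riboflavin transporter, had 4.15, 4.54 and 3.95 TPM in L28BME libraries and 2.14, 1.93 and 1.73 TPM in ME libraries (log2 fold change 0.83, SE 0.102, adjusted p = 0.00455). Slc28a2, a sodium-coupled purine nucleoside carrier, had 15.7, 15.9 and 15.3 TPM in L28BME libraries and 23.8, 19.3 and 21.3 TPM in ME libraries (log2 fold change -0.43, adjusted p = 0.0234). The Slc28a2 call was lost without any L28BME library and without ME library 3 (0.0219 to 0.0741 over the 6 fits). The equilibrative nucleoside carrier Slc29a1, the folate carrier Slc19a1 and the biotin carrier Slc5a6 were not called, with log2 fold changes of -0.02, -0.10 and 0.05. In the lipid class the choline carrier Slc44a2, its most abundant gene, was at 197 ± 14.7 TPM in L28BME and 178 ± 18.1 TPM in ME and was not called. Of the 7 lipid class genes 14.3% were called, close to the 14.9% of all genes tested. The only called gene was Slc10a3, at 25.4, 28.3 and 26.6 TPM in L28BME libraries and 33.5, 37.8 and 37.2 TPM in ME libraries (log2 fold change -0.42, adjusted p = 0.0123). Its exons share 258 bases with Ubl4a on the same strand, which averaged 42.1 TPM. With overlapping gene models summed its log2 fold change was -0.43.

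**Figure D4:**
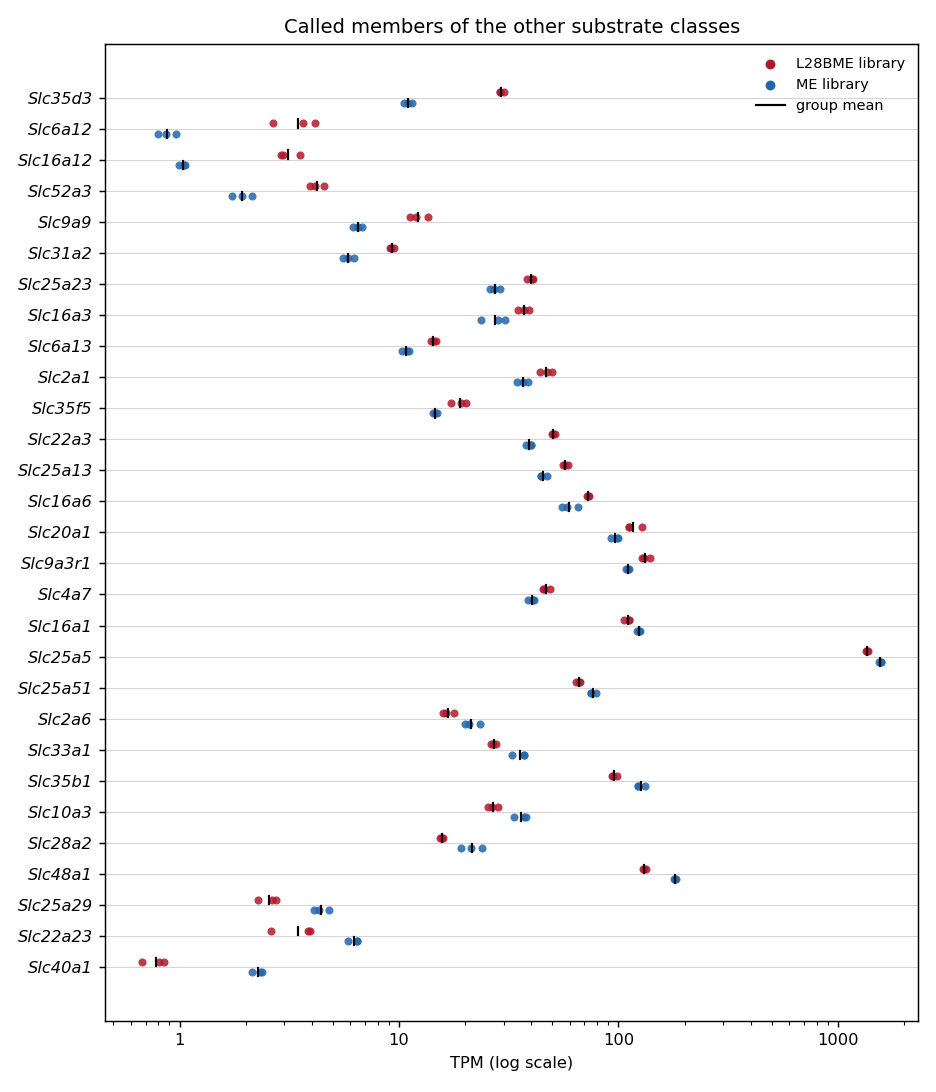
TPM (log scale) in each library of 29 of the 30 called members outside the amino acid class, sorted by log2 fold change, with L28BME libraries above ME libraries and a black bar at each group mean. Slc35d3 and Slc6a12 at the top have log2 fold changes of 1.33 and 1.24, and Slc40a1 at the foot has -0.89. Slc6a12 and Slc40a1 passed the expression threshold only through the group in which they were higher.

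**Figure D5:**
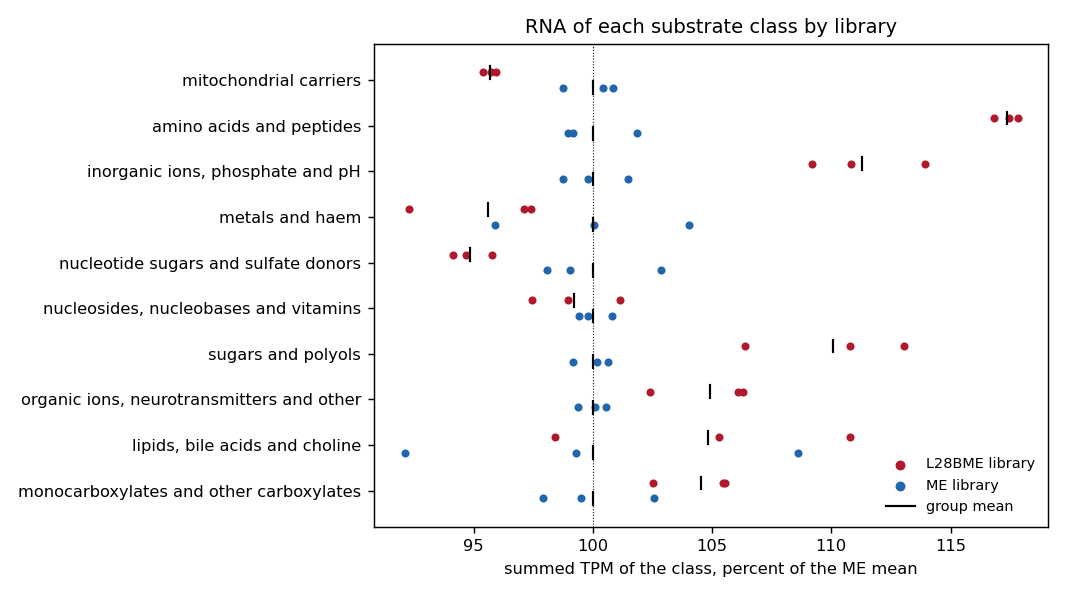
Summed TPM of each substrate class in each library, as a percentage of the ME mean of that class, with a black bar at each group mean. The amino acid class, with a ratio of means of 1.17, stands farthest from 100, and the L28BME and ME libraries overlap for nucleosides, lipids, metals and monocarboxylates.

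Carriers with names outside the Slc series and ABC transporters were counted alongside. Of 25 tested genes of the first kind 5 were higher and 2 lower. The organic anion carriers Slco3a1 and Slco4a1 were the 2 lower, and Slco3a1 was at 13.1 ± 0.973 TPM in L28BME and 29.02 ± 1.36 TPM in ME (log2 fold change -1.09). Of 21 ABC transporters 4 were higher and 5 lower, or 42.9% called, beside the same 14.9%. Abcb9, a lysosomal peptide pump, was higher by 1.64 on the log2 scale, and Abcg2, a drug efflux pump, was lower by 0.53. Without 1 library 0 to 2 of the first kind were higher, and 3 ABC transporters were higher and 2 or 3 lower. Slco3a1, Slco4a1, Abcb9 and Abcg2 held in all 6 fits.

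Some members varied more between libraries of 1 group than between groups, and were picked here for that spread. Slc45a4 had 22.8, 5.48 and 19.1 TPM in L28BME libraries and 18.1, 16.7 and 19.9 TPM in ME libraries, so that L28BME library 2 alone was low. Slc36a1, a lysosomal proton-coupled carrier, had 26.7, 26.2 and 25.04 TPM in L28BME libraries and 30.9, 28.6 and 12.4 TPM in ME libraries, and here ME library 3 was low. Neither gene was called (adjusted p = 0.638 and 0.720).

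Since LIN28B lowers mature let-7, the 3′ UTRs of members were read for let-7 sites. In RefSeq (GRCm38.p6) all listed let-7 family members and miR-98 have the same seed, bases 2 to 8, in capitals below.
let-7a: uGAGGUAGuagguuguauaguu
let-7d: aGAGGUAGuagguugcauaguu
let-7g: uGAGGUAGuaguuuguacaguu
A 7-letter match to the seed, CTACCTC, was present in an annotated 3′ UTR (GENCODE M21 for GRCm38) of 32 of 190 members with one, or 16.8%, beside 12.1% of 10893 tested protein-coding genes. These matches include those that a final A extends to 8 letters. Of the 32 members with the site 5 were called higher, or 15.6% (exact Clopper-Pearson 95% interval 5.28 to 32.8%), and of the 158 without it 26, or 16.5%. The calls of Slc20a1 and Slc4a7, which are among the 5, were lost without any 1 library, as said above, and those of the other 3 held in all 6 fits. Over all tested protein-coding genes the corresponding shares were 16.8% of 1316 genes with the site and 8.59% of 9577 without. The interval for members covers both of these genome-wide shares, so a difference like theirs was not detectable among 32 genes. With the 8-letter match 0 of 7 members were called higher, an interval of 0 to 40.96%. The sites of the 5 higher members are given with their surrounding bases on the gene's strand, the match in capitals.
Slc7a11, chr3:50367160-50367187, minus strand: ttgctatgtccttaCTACCTCttgatga
Slc20a1, chr2:129211560-129211587, plus strand: ccatgttcatctgtCTACCTCttaactg
Slc4a7, chr14:14782091-14782118, plus strand: cagcccgacctaatCTACCTCcgctatg
Slc31a2, chr4:62297300-62297327, plus strand: agaagccattgaagCTACCTCcctcccc
Slc25a23, chr17:57043758-57043785, minus strand: acctacaccaagtcCTACCTCcctgccc
Slc22a23, which had 3 matches, 1 of them of 8 letters, was the 1 member with a site that was called lower. Slc2a3 also had an 8-letter match, and its difference of 0.53 on the log2 scale missed the threshold. A letter match is a description of the sequence and does not show that let-7 acts there.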

How the data were processed

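RNA was isolated with a Norgen single-cell kit and libraries were made with TruSeq Stranded mRNA, per the labels' protocols. The deposited values are TPM per gene, made by the authors with bcl2fastq, HISAT2 and StringTie on GRCm38, per the submitters' processing notes, which also list DESeq2. These notes list no versions. The deposited table also gives the GC percent of each gene.

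Genes whose TPM reached 1 in 3 or more libraries were tested as log2(TPM + 1) with limma 3.58.1 in R 4.3.3. Fold changes on this scale understate those of low genes. Members were matched by symbol and placed in 10 substrate classes by gene family. Class sums were compared by exact permutation. Named genes were all called members, the most abundant of each class, and 27 preset genes, of which 23 are members. Others were chosen after their values were seen. A called member is not reported here by name. Members and lists were chosen with earlier results of these data known. Same-numbered libraries did not deviate together (correlations -0.03, -0.07 and -0.05) and were not paired. Tables and figures were made with Python 3.11.15, pandas 2.3.3, scipy 1.17.1 and matplotlib 3.10.9. Alternatives were other pseudocounts, filters, scalings, limma options, a replicate term, overlapping gene models summed, and each library left out.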

Additional observations from a re-analysis of the deposited data

How the results depend on the processing

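With the replicate number as a block, which the numbers do not warrant as pairs, 22 members were higher and 6 lower. With a minimum absolute log2 fold change of 0.5 there were 12 higher and 6 lower. Leaving out 1 library gave 8 to 12 lower members, 8 of them without ME library 3. No called member changed direction under any alternative that gave it a value. Of the named members that were not called, Slc11a2, Slc39a14, Slc25a3, Slc25a4, Slc35c2 and Slc5a6, whose log2 fold changes lay between -0.11 and 0.05, changed sign under at least 1. Class medians are less firm. Without 1 library they ran from 0.154 to 0.244 for amino acids, -0.0294 to 0.0626 for inorganic ions, 0.0226 to 0.173 for lipids, 0.0327 to 0.0757 for mitochondrial carriers, 0.0028 to 0.219 for monocarboxylates, -0.051 to 0.0143 for nucleosides, -0.0665 to -0.0422 for nucleotide sugars, -0.0536 to -0.0023 for metals and haem, 0.0458 to 0.101 for sugars and -0.0628 to 0.0187 for organic ions. The nucleoside median was above 0 without ME library 3. With a minimum of 5 TPM the medians were 0.239 for amino acids, 0.154 for inorganic ions, 0.147 for monocarboxylates, -0.0331 for organic ions and 0.0272 for sugars, and that of nucleosides turned to 0.0045. Median centring gave 0.183 for amino acids, 0.0255 for mitochondrial carriers, -0.043 for nucleosides, -0.0673 for nucleotide sugars and -0.0237 for organic ions. Removing a GC trend gave -0.0368 for nucleosides, and summing overlapping gene models turned the sugar median to -0.0243. Leaving out mitochondrially encoded genes made the difference in summed amino acid carrier TPM 357 TPM (L28BME minus ME). With the 8-letter let-7 match 0 of 7 members were called higher. The cause of these shifts was not tested. TPM keep no depth, so the precision of low genes is known only from the 3 libraries per group.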
